A study of Mus musculus with 6 samples.

Results

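The genes described here are 45 stress and chaperone genes: those of the unfolded protein response of the endoplasmic reticulum (ER) and of the heat shock system of the cytosol and mitochondria. They were taken by symbol from a table of 27202 genes measured by RNA sequencing in whole colonic tissue of mice with colitis, and all 45 passed the filter on low values that left 16246 genes for testing. They fall by place and role into 11 ER chaperones and cofactors, 4 disulfide isomerases, 4 genes of ER-associated degradation, 4 genes of the IRE1 and ATF6 branches, 7 genes of the PERK and ATF4 branch, 13 cytosolic heat shock genes and 2 mitochondrial chaperonin genes.

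The study compared 3 Nedd4l fl/fl VillinCre libraries (labelled cKO) with 3 Nedd4l fl/fl littermate libraries (labelled WT), from mice 8 to 10 weeks old that drank 2% dextran sulfate sodium (DSS), an agent that injures the colonic epithelium, and were examined on day 7. Both genotypes were on a C57BL/6J background, carried the floxed Nedd4l alleles and received DSS, and no library of untreated colon was in the table, so the values say how the genotypes differed in colitis and not how far colitis moved a gene. The Villin promoter drives Cre in intestinal epithelial cells, whereas the tissue also held stromal and immune cells. The controls carried no Cre, so an effect of Cre itself cannot be told apart from that of the deletion. The labels do not say that each library is a separate mouse, and the p-values measure only the spread between these libraries.

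The ER folds secreted and membrane proteins with the help of chaperones and disulfide isomerases. When unfolded proteins build up, the sensors IRE1, ATF6 and PERK respectively splice the Xbp1 mRNA, release a transcription factor and slow translation while raising ATF4, and together they raise chaperones, degradation factors and, when stress persists, the death-associated factor CHOP. In the cytosol, unfolded proteins release HSF1, which induces the HSP70, HSP90, HSP40 and small heat shock proteins; in the colon, mucin-secreting goblet cells and antibody-secreting plasma cells carry a particularly heavy ER load.

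Values are the deposited normalized counts. In each library they were whole multiples of a step of its own, and the libraries held 14914367 to 17547270 such steps in all. Nedd4l, the deleted gene, read 476, 942 and 566 in cKO1 to cKO3 and 1241, 1271 and 1266 in WT1 to WT3. All 3 cKO libraries lay below all 3 WT libraries, with cKO2 closest to them; the log2 fold change was −0.99 ± 0.24 (SE), with a limma adjusted p of 0.225, and the exact two-sided permutation p was 0.10, the smallest that 3 against 3 can give. Without cKO2 the fold change was −1.28 with an adjusted p of 0.0130. All 9 epithelial markers checked, among them Epcam and Vil1, were above 0 in every library, and 0 of them had an unadjusted p under 0.05. Of 10 colonocyte markers, 9 had a log2 fold change below 0 (median −0.51) and 0 an unadjusted p under 0.05, with sums of 37428, 78352 and 44348 in cKO1 to cKO3 against 63868 to 82197 in WT.

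To see whether the stress and chaperone genes differed by genotype, each was tested by limma on log2(normalized count + 1) in a fit of all tested genes. None of the 45 had a Benjamini-Hochberg adjusted p under 0.05, against 0.0% of all tested genes, and the smallest adjusted p among them was 0.270. At an unadjusted p under 0.05, Eif2ak3 was higher in cKO colon and Hspa4 and Hspd1 were lower, which is 6.67% of the 45 genes against 14.0% of all tested genes (6.91% higher and 7.08% lower). The libraries of the genotypes did not overlap for 4 of the 45 genes (8.89%), Eif2ak3 and Edem1 above and Hspa4 and Hspd1 below, against 21.4% of all tested genes. The median log2 fold change was −0.091 over the 45 genes, with 15 above 0 and 30 below, beside 0.0013 over all tested genes. That tilt depended on the WT2 library: without it the median was 0.0043. Then 2 genes were lower at an unadjusted p under 0.05, against 4.53% of tested genes, and 1 was higher, against 4.91%. Without WT1 the median was −0.17, with 15 genes lower at that p against 5.25% of tested genes, and 2 higher against 5.99%. In bulk tissue, fewer cells of a type and less RNA per cell cannot be told apart, which holds for every difference given here.

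**Figure D1:**
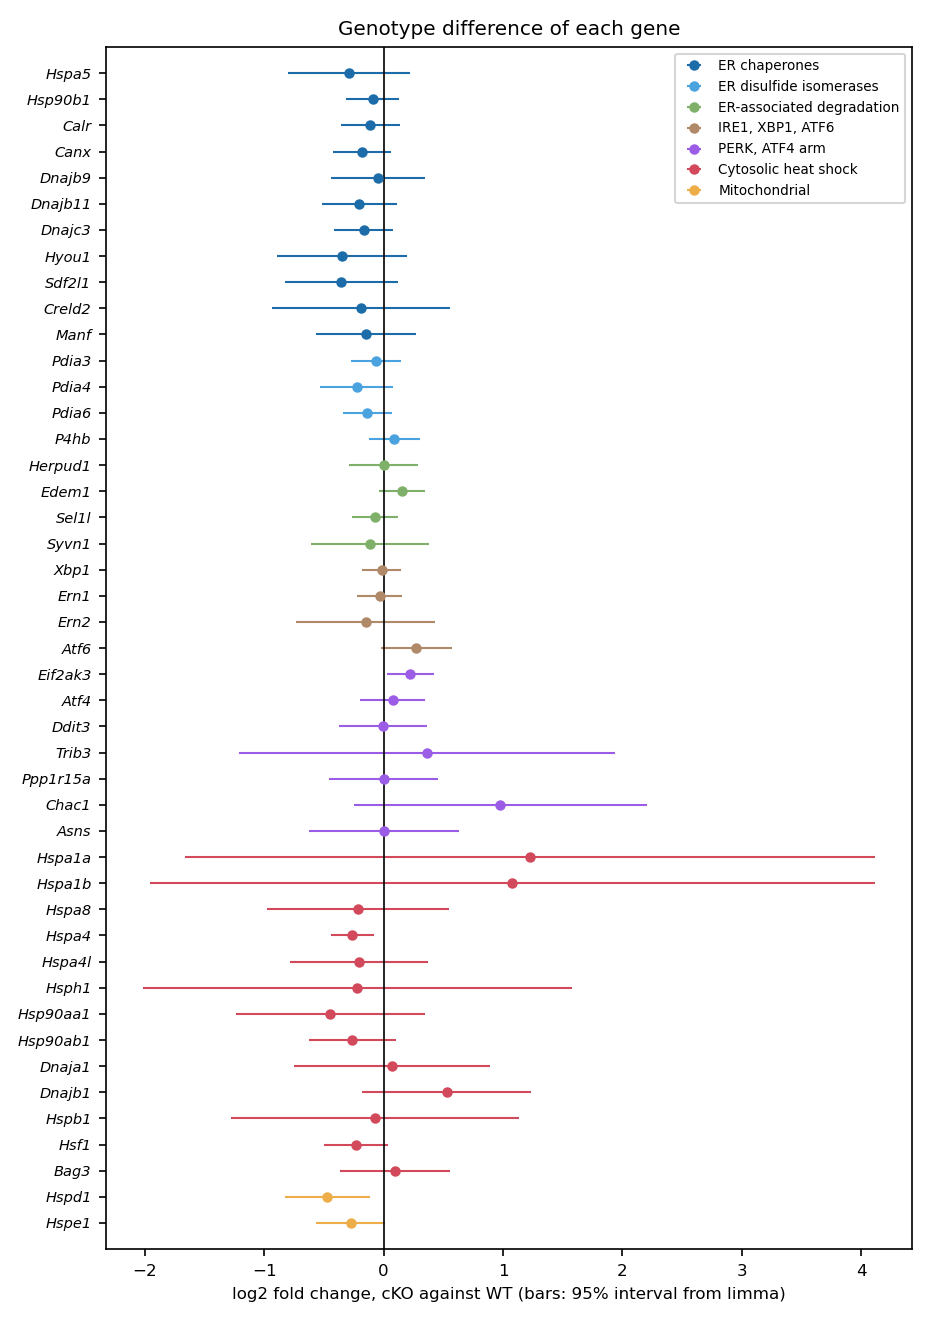
The log2 fold change of each of the 45 genes (cKO against WT, horizontal axis), as points with 95% intervals from limma, coloured by place and role. Only the intervals of Eif2ak3, Hspa4 and Hspd1 leave out 0, and those of Hspa1a and Hspa1b are the widest.

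The highest values of the 45 genes gathered in a few libraries, of either genotype. WT2 held the highest value of 27 of the 45 genes (60.0%), although it was highest for 18.2% of all tested genes. cKO2 was highest for 9, cKO1 for 7, cKO3 and WT1 for 1 each, and WT3 for none. Summed, the 45 genes made up 1.29%, 1.33% and 1.18% of the total in cKO1 to cKO3, and 1.16%, 1.76% and 1.38% in WT1 to WT3, so that the lowest and the highest share both came from WT libraries. Cell type markers set WT2 apart as well. All 8 smooth muscle markers were highest in WT2, with a summed level of 22562 against 5590 to 11806 in the other 5 libraries. Of 9 epithelial markers, 6 were highest there too (summed 226157 against 185686 to 221260). All 9 macrophage markers were lowest there (summed 5448 against 8041 to 11696), as were 6 of 9 plasma cell markers (25333 against 34708 to 47460), 6 of 8 fibroblast markers and 6 of 8 endothelial markers. The part of cell composition in these levels was not tested.

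**Figure D2:**
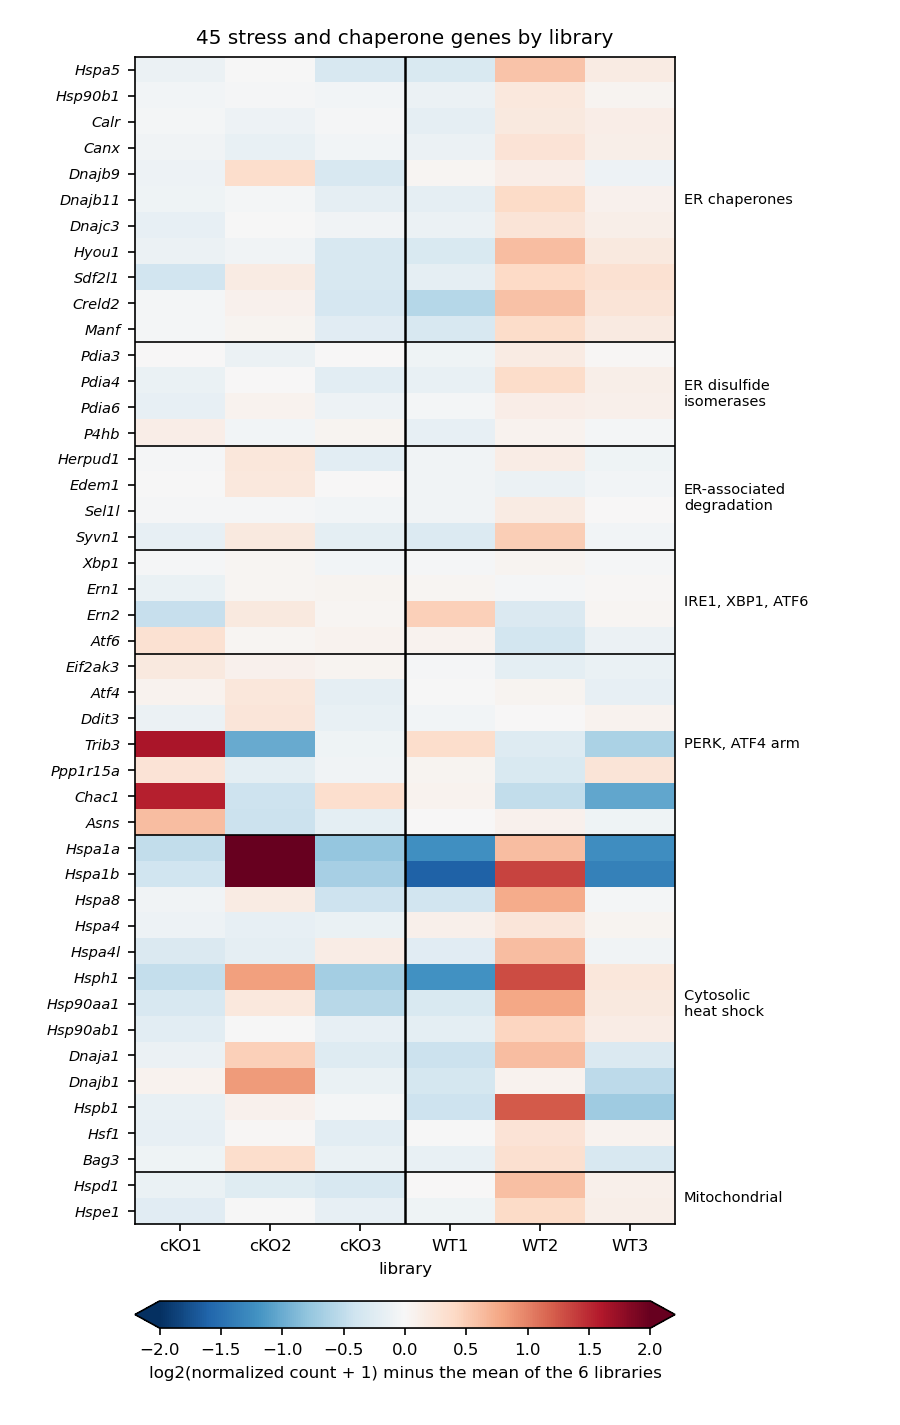
The 45 genes (rows, by place and role) in the 6 libraries (columns), coloured by log2(normalized count + 1) minus the mean of the 6 libraries. The colour scale ends at 2 in either direction, which the HSP70 genes Hspa1a and Hspa1b exceed in cKO2. WT2 is high for most ER and cytosolic chaperones, cKO2 for inducible heat shock genes, and cKO1 for Trib3, Chac1 and Asns.

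Per kilobase of gene length, the mean level over the 6 libraries was highest for the constitutive cytosolic chaperones Hsp90ab1 (7659 normalized counts per kilobase) and Hspa8 (6759). Next came the ER proteins Calr (4849), P4hb (4796), Pdia3 (4351) and Hspa5 (4112). These ER genes lay within each other's spread over libraries, since Hspa5 ran from 3235 to 5938 and Calr from 4286 to 5540 per kilobase. The regulators differed widely, from Xbp1 (2015) and Atf4 (1033) to Hsf1 (81.2). The lowest 3 of the 45 genes were Ppp1r15a at 71.5, Chac1 at 26.4 and Trib3 at 5.74 per kilobase. Gene lengths are those deposited, and such levels compare genes only roughly.

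All 11 ER chaperones and cofactors had a log2 fold change below 0 (median −0.18), from −0.35 for Sdf2l1 to −0.047 for Dnajb9, and 0 of 11 had an unadjusted p under 0.05. Hspa5, which encodes BiP, the HSP70 of the ER and the usual marker of ER stress, read 15685, 16960 and 13681 in cKO1 to cKO3 and 13767, 25114 and 19141 in WT1 to WT3. The groups overlapped fully at the low end, where cKO3 and WT1 were alike, and only WT2 and WT3 lay above the cKO range. Its log2 fold change was −0.29 ± 0.21 (SE), with an interval from −0.80 to 0.23 and an adjusted p of 0.562. Hsp90b1, which encodes GRP94, the HSP90 of the ER, read 11785, 12038 and 11716 in cKO and 11251, 14089 and 12675 in WT, a log2 fold change of −0.091 ± 0.096 (SE, adjusted p = 0.678). Here too the groups overlapped, with WT1 the lowest library. Its highest library was only 1.25 times its lowest, against 1.84 times for Hspa5.

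Sdf2l1, a partner of the ER HSP40 proteins, read 1002, 1468 and 1047 in cKO and 1153, 1721 and 1619 in WT, with a log2 fold change of −0.35 ± 0.20 (SE, adjusted p = 0.454). The cKO2 value lay above that of WT1, so the groups overlapped. Canx, the membrane lectin chaperone calnexin, read 6842, 6434 and 6912 in cKO and 6627, 8639 and 7737 in WT (log2 fold change −0.18 ± 0.11, SE, adjusted p = 0.460). Again only WT2 and WT3 stood above the cKO libraries. Hyou1, the large ER HSP70-like chaperone, named here after its values were seen, showed the same order, with 3926, 4052 and 3402 in cKO and 3464, 6557 and 4909 in WT. The ER chaperones thus varied together from library to library within the WT group: their mean log2 difference from the 6-library mean was −0.11, 0.024 and −0.20 in cKO1 to cKO3 and −0.21, 0.36 and 0.14 in WT1 to WT3. Creld2 and Manf, secreted or retained ER stress proteins, had WT1 as their lowest and WT2 as their highest library, at 1082 and 2415 for Creld2 and at 2444 and 3956 for Manf. Calr, the soluble lectin chaperone calreticulin, ran from 12343 in WT1 to 15956 in WT2, around cKO values of 12968 to 13736. The HSP40 cofactors Dnajb11 (−0.20) and Dnajc3 (−0.16) likewise had their highest values in WT2, at 3770 and 4677. WT2 held the highest value of 10 of the 11, the exception being Dnajb9, which was highest in cKO2.

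The number of ER chaperones under an unadjusted p of 0.05 rested on a single library. Without WT1, the lowest WT library, 9 of 11 ER chaperones had an unadjusted p under 0.05 in the lower direction, against 5.25% of all tested genes. The median was −0.34, yet 0 passed at the adjusted p. Since these genes varied together from library to library, the 9 are not separate pieces of evidence. Without WT2 the median was −0.061 and 0 of 11 had an unadjusted p under 0.05, where 4.53% of all tested genes were lower at that p. The shared direction was then lost as well, with 8 of the 11 below 0 and 3 above. Without cKO3, 10 were below 0 and 1 above.

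Because the ER chaperones varied together, the 250 bases upstream of the transcription start were searched on both strands for known stress elements in the RefSeq promoter table (GRCm38.p6), which held 37 of the 45 genes. The ER stress response element, CCAAT followed after 9 bases by CCACG, was found in 0.113% of the 32851 promoters and in 8 of the 37, namely Calr, Canx, Creld2, Dnajc3, Hsp90b1, Hspa5, Pdia6 and Syvn1. The related second element, ATTGG followed after 1 base by CCACG, was in 0.0304% of promoters and in Herpud1 alone of the 37. The UPRE core TGACGTGG (0.563% of promoters) and the ATF4 composite element ATTGCATCA (0.167%) were in none of the 37, which says only that these letters are not in these windows. The stretches below show how the element lies in genes of different roles and on either strand, with the matched letters in capitals and 5 bases on each side; those of Calr and Creld2 match on the opposite strand, and that of Hspa5 overlaps an annotated exon.
Hspa5, chr2:34772020-34772048, plus strand: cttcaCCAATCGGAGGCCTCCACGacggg
Calr, chr8:84847070-84847098, minus strand: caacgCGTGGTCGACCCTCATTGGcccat
Creld2, chr15:88819515-88819543, plus strand: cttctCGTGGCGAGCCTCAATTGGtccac
Pdia6, chr12:17266486-17266514, plus strand: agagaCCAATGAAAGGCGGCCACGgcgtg
Herpud1, chr8:94386372-94386392, plus strand: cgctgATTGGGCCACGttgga
The 8 genes with the first element each had WT2 as their highest library, whereas Herpud1 was highest in cKO2. WT2 was the highest library for 27 of all 45 genes (60.0%), these 8 included. Among the 27 were Sdf2l1, Hyou1 and Manf, which are not among the 8, so a WT2 peak was not particular to genes with the element. The spread of the 8 differed in size, from 1.23-fold over the libraries for Pdia6 to 1.84-fold for Hspa5 and 2.23-fold for Creld2. A match is a description of the letters and not a measured binding site.

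The 4 disulfide isomerases, which form and rearrange disulfide bonds, varied little, and the ratio of the highest to the lowest library had a median of 1.23 against 1.53 over all tested genes. Pdia4 read 3481, 3836 and 3315 in cKO and 3440, 4938 and 4158 in WT (log2 fold change −0.22 ± 0.13, SE, adjusted p = 0.465). Pdia6 read 4722, 5554 and 4956 in cKO and 5184, 5820 and 5704 in WT (−0.13 ± 0.090, SE, adjusted p = 0.516). The genotypes overlapped for both, for Pdia6 through cKO2 alone and for Pdia4 through cKO1 and cKO2, which lay above WT1. P4hb, the only isomerase of the 4 with a value above 0, had a log2 fold change of 0.091, and Pdia3 stood at −0.061.

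In ER-associated degradation, which carries misfolded proteins out of the ER to the proteasome, values lay on both sides of 0 (median −0.035). Edem1, which delivers misfolded glycoproteins to this pathway, read 4697, 5459 and 4748 in cKO and 4492, 4337 and 4531 in WT. All 3 cKO libraries were above all 3 WT libraries, yet by little, with a log2 fold change of 0.15 ± 0.084 (SE), an unadjusted p of 0.103 and an adjusted p of 0.431. Sel1l, the scaffold of the HRD1 ubiquitin ligase, read 2926, 2918 and 2859 in cKO and 2843, 3333 and 2977 in WT (−0.070 ± 0.083, SE, adjusted p = 0.716). The ligase gene itself, Syvn1, stood at −0.11 and Herpud1, which organizes the complex, at 0.00032.

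The genes of the IRE1 and ATF6 branches ran from the most even gene of the 45 to widely spread ones. Xbp1, the transcription factor activated by IRE1 through splicing, read 6458, 6746 and 6321 in cKO and 6466, 6830 and 6448 in WT. Its highest library was 1.08 times its lowest, and 99.4% of tested genes had at least that range. A log2 fold change of −0.016 ± 0.072 (SE) was estimated, with an interval from −0.18 to 0.15. These counts are per gene, so the spliced form of Xbp1 was not measured. Ern1, which encodes the widely expressed IRE1 alpha, was similarly even, with 1348, 1515 and 1528 in cKO and 1522, 1457 and 1505 in WT (−0.032 ± 0.081, SE, adjusted p = 0.877).

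Ern2, which encodes IRE1 beta, the form of mucosal epithelium and goblet cells, spread wider, reading 1095, 1710 and 1545 in cKO and 2092, 1233 and 1536 in WT. The lowest value was in cKO1 and the highest in WT1, and the groups overlapped (−0.15 ± 0.24, SE, adjusted p = 0.798). The sum of the 10 goblet markers ran from 90423 in cKO1 to 466758 in cKO2, with 155133 in WT2 and 312309 in WT1, so cKO1 and WT2 were lowest for the goblet sum and for Ern2 alike; whether goblet cell content moved Ern2 was not tested. Atf6, the membrane-bound factor that is cleaved under stress, read 1787, 1476 and 1508 in cKO and 1515, 1116 and 1327 in WT. Only WT1 reached into the cKO range, and the log2 fold change of 0.27 ± 0.13 (SE) had an unadjusted p of 0.0664 and an adjusted p of 0.382. WT2, which was highest for most ER chaperones, was the lowest library for Atf6.

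In the PERK and ATF4 branch, Eif2ak3, which encodes the sensor kinase PERK, read 1047, 976 and 956 in cKO and 908, 804 and 842 in WT. Every cKO library was above every WT library, with a log2 fold change of 0.22 ± 0.086 (SE), an unadjusted p of 0.0317 and an adjusted p of 0.326. Without cKO1, cKO2, WT2 or WT3 the unadjusted p no longer fell under 0.05, although the log2 fold change stayed between 0.18 and 0.27. Atf4, whose mRNA is chiefly under translational control, read 2540, 2840 and 2141 in cKO and 2416, 2530 and 2154 in WT (0.077 ± 0.12, SE, adjusted p = 0.786). Ddit3, which encodes CHOP, read 159, 203 and 156 in cKO and 165, 173 and 180 in WT (−0.0073 ± 0.16, SE, adjusted p = 0.987). Both overlapped fully. Ddit3 overlaps the opposite-strand gene Mars, and strand use in the counting is not given in the sources used here. How reads of the overlap were assigned is therefore uncertain.

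Ppp1r15a, which encodes GADD34, the phosphatase subunit that restores translation, read 251, 181 and 197 in cKO and 215, 167 and 249 in WT, again with full overlap (0.00071 ± 0.20, SE).

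The ATF4 targets told the libraries apart more than the genotypes. Chac1, which degrades glutathione, read 107, 26.5 and 45.4 in cKO and 37.5, 25.2 and 17.0 in WT. The cKO1 value was more than any other, and cKO2 and WT2 were alike. The log2 fold change was 0.98 ± 0.53 (SE, adjusted p = 0.430), and without cKO1 it was 0.44. Trib3, a pseudokinase, and Asns, the asparagine synthetase, were named after their values were seen. Trib3 read 32.6, 4.42 and 9.28 in cKO and 12.8, 8.10 and 5.99 in WT, the lowest level of the 45 genes, where counting error weighs most. Asns read 1300, 630 and 743 in cKO and 849, 896 and 795 in WT, so it was high in cKO1 and below every WT library in cKO2 and cKO3. cKO1 was the highest library for 24.4% of all tested genes and for 5 of the 7 genes of this branch. It was also highest for 17 of the 31 other integrated stress response genes tested, which include the serine synthesis enzyme Psat1 (783 against 297 to 443 in the other libraries) and the cystine transporter Slc7a11 (489 against 212 to 274), both named after their values were seen.

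Neutrophil transcripts marked the same library, and cKO3 to a smaller extent. The 8 neutrophil markers listed summed to 9464 in cKO1 and to 2988 to 3263 in the other 5 libraries, where Ly6g was most of the sum. Of the 7 tested, 6 had a log2 fold change above 0, and Cxcr2 was at 0 in WT1 and WT3. The mean log2 difference of these 7 from the 6-library mean was 3.48, −0.75 and 1.22 in cKO1 to cKO3. It was −1.24, −1.40 and −1.30 in WT1 to WT3. S100a9 read 2680 in cKO1, 27.6 in cKO2 and 348 in cKO3, against 10.8 to 15.8 in WT, while Ly6g, on the contrary, ranged from 2200 to 3136 with no peak in cKO1. The part of neutrophil RNA in the cKO1 values of Chac1, Trib3 and Asns was not tested.

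**Figure D3:**
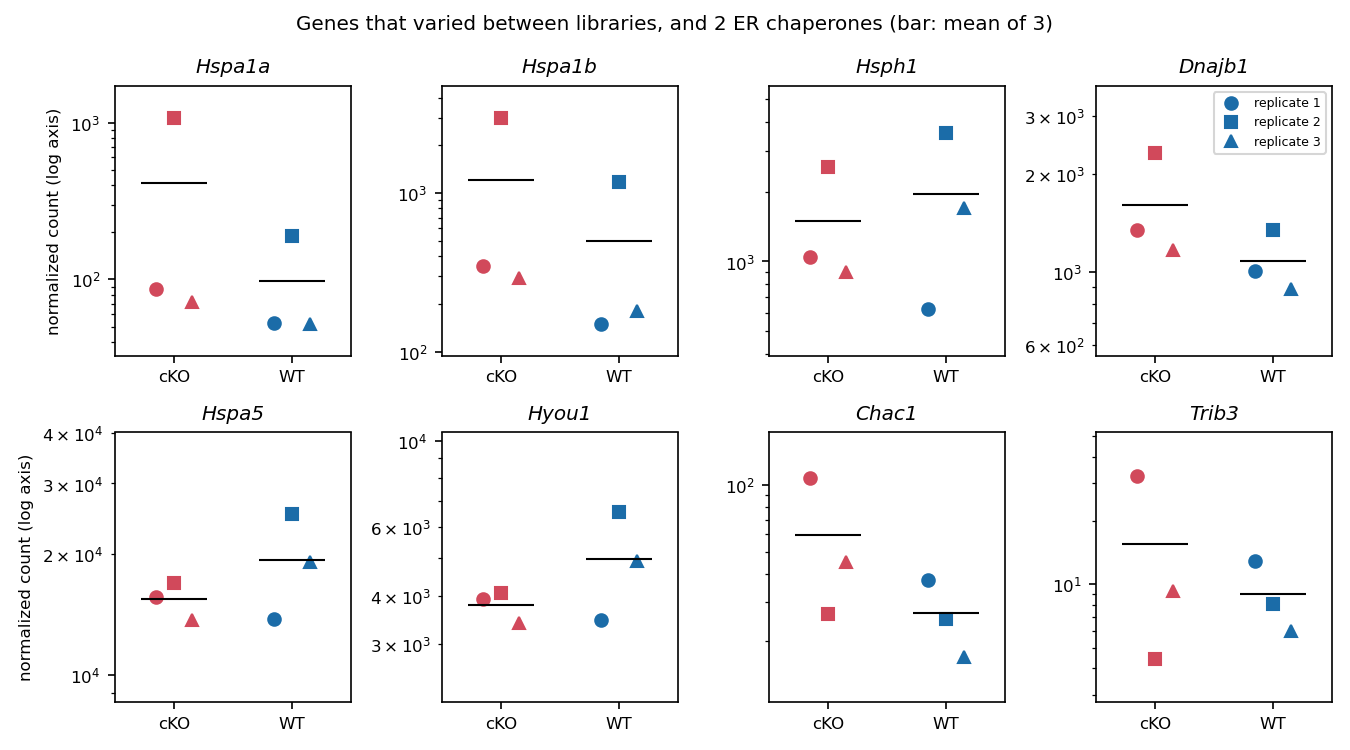
Normalized counts (log axes, one scale for each gene) of 4 heat shock genes, 2 ER chaperones and 2 ATF4 targets; points are single libraries of cKO (red) and WT (blue), with replicate numbers by shape, and bars are means of 3. Replicate 2 is the highest of its genotype for Hspa1a, Hspa1b, Hsph1 and Dnajb1, WT2 is highest for Hspa5 and Hyou1, and cKO1 for Chac1 and Trib3.

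The cytosolic heat shock genes had the widest spread of all groups, with a median ratio of highest to lowest library of 2.24 against 1.53 over all tested genes. Hspa1a, an inducible HSP70 gene on chromosome 17, read 87.2, 1071 and 72.2 in cKO and 52.3, 190 and 51.9 in WT. cKO2 stood far above the rest, WT2 was second, and the other 4 libraries lay between 51.9 and 87.2. Only 0.776% of tested genes had as large a range. The log2 fold change of 1.23 ± 1.17 (SE) had an interval from −1.66 to 4.12 and an adjusted p of 0.653, and without cKO2 it was −0.018. Hspa1b, its neighbour, read 348, 2964 and 292 in cKO and 150, 1176 and 180 in WT, in the same order of cKO2 and WT2 above the rest (1.08 ± 1.22, SE, adjusted p = 0.708; 0.0080 without cKO2). The coding sequences of the 2 genes, of 1926 and 1929 bases, agree at 99.4% of positions, so how their reads were divided is uncertain and they are not independent measurements.

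Hsph1, an HSP110 exchange factor, and Dnajb1, the inducible HSP40, were named after their values were seen. Hsph1 read 1041, 2560 and 898 in cKO and 626, 3571 and 1694 in WT. Dnajb1 read 1343, 2313 and 1170 in cKO and 1007, 1349 and 889 in WT. In both, replicate 2 was again the highest of its genotype. The mean log2 difference of the 13 genes from the 6-library mean was −0.22, 0.65 and −0.31 in cKO1 to cKO3 and −0.49, 0.66 and −0.30 in WT1 to WT3. Thus the 2 high libraries came from different genotypes, and each genotype held 2 low ones. Of the 13 genes, 9 were highest in WT2 and 4 in cKO2, and none in another library. Hspb1, a small heat shock protein abundant in muscle, was high in WT2 alone (428 against 111 to 192), the library with the highest smooth muscle sum. The part of smooth muscle in this value was not tested. Without WT2 the log2 fold change of Hspb1 was 0.53, with an unadjusted limma p under 0.05, where 4.91% of tested genes were higher at that p.

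Hspa8, the constitutive HSC70, read 26747, 31165 and 20933 in cKO and 21501, 46991 and 27087 in WT (−0.22 ± 0.31, SE, adjusted p = 0.776). WT2 stood above all others and the rest overlapped; without WT2 the log2 fold change was 0.10. Hsf1, the regulator itself, read 509, 585 and 496 in cKO and 569, 695 and 603 in WT, with overlap of cKO2 and WT1 only (−0.23 ± 0.11, SE, unadjusted p = 0.0793, adjusted p = 0.403). Both cytosolic HSP90 genes followed WT2 and WT3. The inducible Hsp90aa1 read 5201, 7520 and 4457 in cKO and 5265, 11151 and 7486 in WT, with cKO2 level with WT3 (−0.44 ± 0.32, SE, adjusted p = 0.555). The constitutive Hsp90ab1 read 19538, 22583 and 20116 in cKO and 19813, 30681 and 25077 in WT (−0.26 ± 0.16, SE, adjusted p = 0.467), and only WT1 lay within the cKO range. Bag3, an HSP70 cochaperone of selective autophagy, read 1069, 1441 and 1034 in cKO and 1019, 1409 and 908 in WT, so that cKO2 and WT2 were alike and high (0.096 ± 0.19, SE). Dnaja1, a cytosolic HSP40, had the same highest libraries, 4586 in cKO2 and 5040 in WT2, with 2440 to 3046 in the other 4. Hspa4l, a relative of Hspa4, read 2628 in WT2 and 1399 to 1893 elsewhere (−0.21 ± 0.24, SE).

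The median of the 13 genes was −0.21 and depended on WT2, without which it was 0.28.

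Hspa4, an HSP110 family member that serves as exchange factor for HSP70, departed from this pattern. It read 3904, 3768 and 3846 in cKO and 4530, 4955 and 4356 in WT. All cKO libraries lay below all WT libraries, with a narrow spread in cKO of 3839 ± 68.5 (SD, n = 3) against 4614 ± 308 (SD, n = 3). The log2 fold change was −0.26 ± 0.078 (SE), a level 0.833 times that of WT, with an unadjusted p of 0.00964 and an adjusted p of 0.270. It ranged from −0.30 to −0.21 when single libraries were left out, with an unadjusted p under 0.05 each time.

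The mitochondrial chaperonin consists of HSP60 and its lid HSP10, encoded by Hspd1 and Hspe1. Hspd1 read 5145, 4774 and 4533 in cKO and 5676, 8590 and 6076 in WT. The groups did not overlap, although cKO1 and WT1 were close and WT2 stood apart. The log2 fold change was −0.47 ± 0.15 (SE), a level 0.722 times that of WT, with an unadjusted p of 0.0167 and an adjusted p of 0.292. Without WT2 it was −0.29, and without cKO3 the unadjusted p of Hspd1 was no longer under 0.05. Hspe1 read 1387, 1617 and 1450 in cKO and 1543, 2115 and 1765 in WT, with cKO2 above WT1 (−0.27 ± 0.12, SE, unadjusted p = 0.0592, adjusted p = 0.368). The genes lie head to head on chromosome 1, Hspd1 on the minus strand at 55077835 to 55088243 and Hspe1 on the plus strand at 55088132 to 55091307, and they overlap there, so reads of the overlap cannot be assigned without strand. The heat shock element searched, TTC, GAA and TTC with 2 bases between each, was in 0.466% of promoters and, of the 37 genes with a promoter in the table, only in this pair, in the stretch they share (capitals mark 2 overlapping matches, on opposite strands).
Hspe1, chr1:55088054-55088081, plus strand: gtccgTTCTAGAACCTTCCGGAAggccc
This stretch is the same for both genes and counts as a single occurrence, and it overlaps an annotated exon. For the other genes, the lack of a match says only that these letters are not in the windows searched.

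The partners of the chaperonin were compared because the pair is too small to describe the compartment. Of 14 other mitochondrial chaperones and proteases, 7 had an unadjusted p under 0.05 in the lower direction (against 7.08% of all tested genes) and none in the higher, and the median was −0.17. The smallest p values were those of Lonp1, the matrix protease, and Dnaja3, the mitochondrial HSP40. Lonp1 read 1368, 1293 and 1345 in cKO and 1621, 1642 and 1640 in WT (−0.29 ± 0.071, SE, adjusted p = 0.211). Dnaja3 read 1127, 1152 and 970 in cKO and 1309, 1672 and 1411 in WT (−0.43 ± 0.12, SE, adjusted p = 0.241). In both, the genotypes were well separated within these libraries, and neither passed the adjusted threshold. The others of the 7 were Hspa9 (−0.28), Clpp (−0.27), Spg7 (−0.24), Clpb (−0.24) and Trap1 (−0.20). Leaving out single libraries left 2 to 6 genes under that p, 2 of them without cKO3 and 3 without cKO1; 4 were under it without WT2, without WT1 and without WT3 each. Proliferation genes moved the same way: 7 of 12 tested had an unadjusted p under 0.05 in the lower direction and 1, Ccnb1, in the higher, with Mcm2 at 1014, 880 and 771 in cKO and 1269, 1370 and 1405 in WT. The part of proliferation in the mitochondrial values was not tested.

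**Figure D4:**
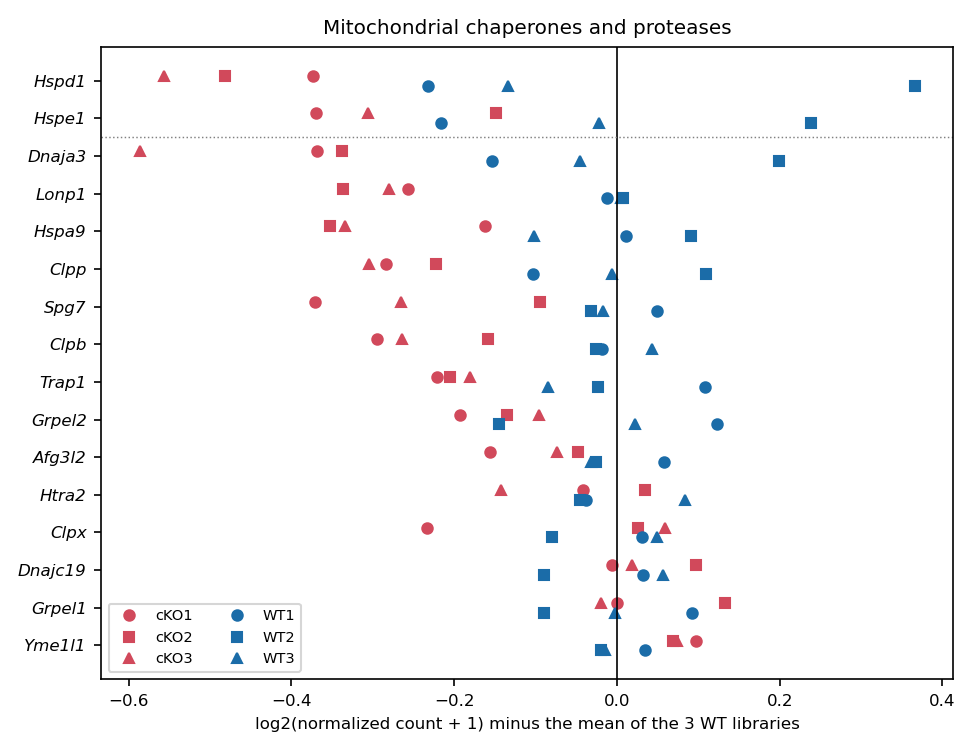
Log2(normalized count + 1) minus the mean of the 3 WT libraries (horizontal axis) for Hspd1, Hspe1 and, under the dotted line, 14 other mitochondrial chaperones and proteases; each point is a library, cKO in red and WT in blue. For Hspd1, Dnaja3, Lonp1, Hspa9, Clpp, Spg7, Clpb, Trap1 and Afg3l2 all cKO points lie to the left of all WT points. For 1 of the 14 other genes all cKO points lie to the right. Over all tested genes, all cKO libraries lay below all WT libraries for 10.9% and above for 10.5%.

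Other genes of the same pathways were counted from lists set beside the 45, at an unadjusted p under 0.05, which 6.91% of all tested genes passed in the higher and 7.08% in the lower direction. Of 41 other cytosolic chaperones and cochaperones tested, 5 were lower (12.2%) and 0 higher (median −0.086), namely Fkbp4, Stub1, Ptges3, Hspbp1 and St13, cofactors that work with HSP90 and HSP70. Fkbp4 read 3947, 4974 and 4070 in cKO and 5006, 7395 and 6366 in WT (−0.52 ± 0.16, SE, adjusted p = 0.276). Stub1, the ubiquitin ligase CHIP, read 590, 590 and 496 in cKO and 703, 679 and 650 in WT (−0.28 ± 0.10, SE, adjusted p = 0.313). WT2 was the highest library for 25 of the 42 genes listed, and without it 1 gene was under that p in the lower direction and 1 in the higher.

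On the ER side the other lists did not follow the chaperones. Of 27 other ER folding enzymes, 3 were higher (11.1% against 6.91% of all tested genes) and 2 lower (7.41% against 7.08%) at an unadjusted p under 0.05 (median 0.084), with Ero1l, which reoxidizes disulfide isomerases, at 1931, 1627 and 1635 in cKO and 1396, 1526 and 1243 in WT (0.32 ± 0.11, SE, adjusted p = 0.301), and Serpinh1, the collagen chaperone, at 0.50. Fibroblast markers were higher in cKO, 5 of 8 with an unadjusted p under 0.05 and summed levels of 23837 to 45902 against 12138 to 20445; their part in the Serpinh1 value was not tested. Of 25 translocon genes, 2 were higher (8.0%) and 0 lower. Sec61g, a subunit of the protein-conducting channel, read 793, 786 and 810 in cKO and 564, 586 and 619 in WT (0.43 ± 0.083, SE, adjusted p = 0.169), and Spcs1, of the signal peptidase, stood at 0.27. Of 21 other degradation genes, Edem3 (0.29, adjusted p = 0.278) and Erlec1 (0.28) were higher (9.52%) and none lower. Of 14 other regulators, Creb3 (0.36, adjusted p = 0.270) and Creb3l2 (0.34) were higher (14.3%) and Creb3l1 (−0.47) lower (7.14%). Of 31 other integrated stress response genes, 5 were higher (16.1%) and 2 lower (6.45%), led by Ddit4 (0.58, adjusted p = 0.257) and Cebpb (0.65, adjusted p = 0.281). The median of the 31 was nevertheless −0.043, with 18 below 0, and the larger number higher depended on cKO1. Without cKO1 the median was −0.13, and 2 of the 31 were higher and 8 lower at that p. None of these genes passed the adjusted threshold, and most of these shares rest on 1 to 3 genes.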

How the data were processed

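Total RNA of mouse colon was extracted with TRIzol and made into libraries with the NEBNext Ultra kit. The submitters' processing notes name HISAT2 2.0.5, featureCounts 1.5.0-p3 and the build hg18, which is a human build, whereas the deposited gene identifiers are of mouse; all 45 members have the identifiers and coordinates of GENCODE M21 (GRCm38). The deposited values of the 6 libraries are normalized counts, a signal scaled between libraries by the authors, and were used as they stand. The authors' genotype means, log2 fold changes and p-values were deposited beside them and were not used. Genes averaging 10 or more across the 6 libraries were fitted by limma 3.58.1 (R 4.3.3; trend and robust) on log2(value + 1), with genotype as the sole term and Benjamini-Hochberg adjustment over all 16246 genes (threshold 0.05); errors are standard errors of the log2 fold change. The fit was tested on simulated data. The values are whole multiples of a step in each library, but for WT3 the step lies so close to 1 that its values were not accepted as recovered reads, and the planned count tests were not run. Named with every library's value were the genes with an unadjusted p under 0.05, the 2 smallest p values of each group, and the main sensors, regulators and chaperones; of each further list, the 2 smallest p values and others where given. The 45 members and all lists were chosen with earlier results of these data known. The RNA-seq statistics of the study are not given in the sources used here. Of 45 members, 14 overlap another listed gene.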

Additional observations from a re-analysis of the deposited data

How the results depend on the processing

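With 13 alternatives (pseudocount 5, no filter on low values, a mean of at least 50, quantile normalization, array weights, a replicate block, a trimmed mean scaling chosen after seeing the data, and leaving out each library), 0 of the 45 genes passed the adjusted threshold in any fit. The planned count models and the scaling from a count package were not run. Over the whole table, the adjusted calls, 0 here, were 7 higher and 23 lower with no filter, 262 and 369 with array weights, and from 0 to 70 higher and 0 to 52 lower when single libraries were left out (70 and 52 without cKO2, 2 and 22 without cKO1); the cause was not tested. Of the 45 genes, the number higher at an unadjusted p under 0.05 was 2 with no filter and 2 with array weights (12.8% of all tested genes were higher). It was 0 to 2 without single libraries. That number was 2 without WT1 and 1 without WT2, where 5.99% and 4.91% of tested genes were higher. It was 1 without cKO2 and 2 without cKO3, where 8.94% and 4.93% were. The number lower was 6 with array weights (13.1% of all tested genes were lower) and 1 to 15 without single libraries (15 without WT1, 5 without cKO2, where 8.77% of tested genes were lower, and 1 without cKO3, where 4.81% were). With the replicate number as a block, 6 were higher and 6 lower (of all tested genes, 7.41% and 6.48%). The higher were Atf6, Eif2ak3, Chac1, Hspa1a, Hspa1b and Dnajb1, the lower Sdf2l1, Hspa4, Hsp90aa1, Hsf1, Hspd1 and Hspe1. For Hspa1a, Hspa1b and Dnajb1, each cKO library was above the WT library of the same number. Over all tested genes the correlations of same-numbered libraries were −0.029, −0.090 and −0.056, so the labels' numbers were not taken as pairs. These correlations cannot say whether the heat shock genes, high in replicate 2 of both genotypes, varied in pairs. Nedd4l passed the adjusted threshold with array weights (−1.09) and without cKO2 (−1.28), with a range of −1.28 to −0.79 without single libraries. The log2 fold change had either sign over the alternatives for 20 of the 45 genes, with reversals in 7 of the 23 genes of the naming rule: Atf4 (−0.057 with array weights and −0.018 to 0.19 without single libraries), Ern1 (0.014 with array weights and −0.065 to 0.026), Ddit3 (−0.13 to 0.062), Ern2 (−0.33 to 0.051), Hspa1a (−0.018 to 1.92), Hspa8 (−0.46 to 0.10) and Xbp1 (−0.042 to 0.011). The median of the PERK and ATF4 genes was −0.057 with array weights. With 3 libraries a genotype, no exact permutation test can go below 0.10, and the lowest counts, with the largest relative counting error, are those of Trib3.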
